A study of Mus musculus with 15 samples.

Results

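The sinusoidal uptake carriers are the membrane proteins with which a hepatocyte takes bile acids, organic anions, prostaglandins and carnitine out of the blood. Slc10a1, Slco1a1, Slco1a4, Slco1b2, Slco2a1, Slco2b1, Slco3a1, Slc22a7 and Slc22a5 were taken here by name, 9 genes of the 27343 gene names on the array. They were read by 12 probes of 60 bases, with 2 probes each for Slco1a1, Slco2a1 and Slc22a5. Gene expression had been measured on 15 Agilent 1-colour mouse arrays. The labels named 7 mHep arrays and 7 eHep arrays of expandable hepatocytes, which are liver cells made able to multiply in culture, and 1 array of freshly isolated primary hepatocytes. The study grew the expandable cells for 21 days in a medium for differentiation or in one for expansion. The labels did not spell out mHep, which was taken as the cells in differentiation medium, with eHep as those in expansion medium. The cultured cells came from 3 mice. C57B6-No1 and 129S1-No1 gave 3 mHep and 3 eHep arrays each, 129S1-No2 gave 1 of each, and the primary cells were from an unstated number of C57B6 mice. The strains were given as 129S1 and C57B6, and no age, sex or transgene was stated. Nothing in the labels said that arrays of the same mouse came from separate cultures, so within a mouse the p-values measure only the spread between its arrays, which may be technical. The 3 eHep arrays of 129S1-No1 shared 1 slide and its 3 mHep arrays another, so medium and slide cannot be told apart in that mouse.

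Hepatocytes take up conjugated bile acids across the membrane that faces the sinusoidal blood, mainly through the sodium-coupled carrier encoded by Slc10a1 and, without sodium, through organic anion carriers of the Slco1a and Slco1b branches. The bile acids are then pushed out into bile at the opposite, canalicular membrane, which closes the enterohepatic circuit. The carriers of sinusoidal uptake are known as marks of the mature hepatocyte, and their genes are known targets of hepatic nuclear receptors and of the hepatocyte nuclear factors.

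Levels below are log2 signals minus the 75th percentile of all probes on that array, so that 0 is as bright as that percentile, and the levels of different genes were not compared because each probe has its own response. The share of probes well above background ran from 48.8% to 61.9% over the cultured arrays and was 36.3% on the primary array. The 75th percentile signal was 249 to 827 on cultured arrays and 78.3 on the primary one. Of the 135 readings of the carriers, 60 were not well above background, and in 41 of these the scanner software had put in a surrogate value, so differences among dark readings carry no order. Of 9 hepatocyte markers on the array, 8 or 9 were well above background on each mHep array, 2 to 6 on each eHep array and all 9 on the primary array. Their summed signal, in units of the 75th percentile, was 165 to 1650 in mHep, 1.27 to 8.32 in eHep and 9370 in primary cells. For 129S1-No2, the source name of the mHep array said eHep. The title was followed, and the summed hepatocyte signal of that array, 281, lay among those of the other mHep arrays. In such bulk samples, fewer cells of a type and less RNA per cell cannot be told apart.

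Sequences of 2 probes are shown because they read carriers whose signal was dark in every eHep array and bright in primary cells. Their positions are those of the file annotation, in build mm9. The probe of Slc10a1 lay at chr12:82061470-82061529 on the minus strand and that of Slco2b1 at chr7:106807008-106807067 on the minus strand. The probes of Slco1a1, Slco1a4 and Slco1b2 lay on chromosome 6, that of Slco3a1 on chromosome 7, those of Slco2a1 on chromosome 9, those of Slc22a5 on chromosome 11 and that of Slc22a7 on chromosome 17. Whether a probe lies in coding sequence or a UTR was not analysed here.
Slc10a1 probe: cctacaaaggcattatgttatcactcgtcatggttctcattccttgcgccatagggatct
Slco2b1 probe: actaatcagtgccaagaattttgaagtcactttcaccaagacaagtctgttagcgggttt

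The promoter windows of Slc10a1 and Slco1b2 are shown because these genes changed together in the mHep cells of 1 mouse, as described further on. Each window holds 250 bases before and 50 bases after a RefSeq start site, in build GRCm38.p6, and 7 of the 9 carriers had at least 1 of the 10 windows found. Capitals mark GTTAAT, one arm of the site known for HNF1, and AGGTCA, one arm of the sites known for nuclear receptors, on either strand, where TGACCT is AGGTCA read on the other strand. The Slco1b2 window spans chr6:141629268-141629567 on the plus strand, and the 2 Slc10a1 windows span chr12:80968656-80968955 and chr12:80968030-80968329 on the minus strand.
Slco1b2 window: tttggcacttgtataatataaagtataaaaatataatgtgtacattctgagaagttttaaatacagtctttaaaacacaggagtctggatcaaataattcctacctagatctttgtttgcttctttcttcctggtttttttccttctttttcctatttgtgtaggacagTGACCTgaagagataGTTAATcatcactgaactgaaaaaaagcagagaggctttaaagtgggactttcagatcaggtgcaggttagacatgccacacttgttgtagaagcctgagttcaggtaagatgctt
Slc10a1 window 1: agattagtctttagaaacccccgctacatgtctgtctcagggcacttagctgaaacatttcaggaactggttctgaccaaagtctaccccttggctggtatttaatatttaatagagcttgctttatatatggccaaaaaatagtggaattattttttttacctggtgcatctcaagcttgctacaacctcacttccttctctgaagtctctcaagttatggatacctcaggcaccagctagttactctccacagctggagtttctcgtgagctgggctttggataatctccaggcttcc
Slc10a1 window 2: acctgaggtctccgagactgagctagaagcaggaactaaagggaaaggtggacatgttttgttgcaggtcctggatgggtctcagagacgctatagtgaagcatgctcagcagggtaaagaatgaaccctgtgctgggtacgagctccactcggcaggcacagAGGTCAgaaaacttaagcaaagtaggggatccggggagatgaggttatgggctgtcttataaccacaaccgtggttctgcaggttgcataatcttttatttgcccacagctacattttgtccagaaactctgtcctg

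GTTAAT stood in 1 of the 10 carrier windows, that of Slco1b2, at position -66 from the start site, and in 7.1% of 32851 RefSeq windows of the same length. AGGTCA stood in 3 of the 10 windows, against 16.3% of all windows. It was found at -81 in Slco1b2, at -87 in the second Slc10a1 window, and at -134 and -24 in Slco1a1. TATAAA, the TATA box, was found in 4 carrier windows and in 13.6% of all windows, on either strand. The full HNF1 palindrome (0.00913% of all windows), the HNF4 site CAAAGTCCA (0.475%), the FOXA core TGTTTAC (3.65%) and the C/EBP palindrome TTGCGCAA (0.183%) were searched on both strands and had no match in the carrier windows. A match describes letters only and is not a bound site. GTTAAT is contained in the HNF1 palindrome.

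Slc10a1, the sodium-coupled bile acid carrier, was bright in primary hepatocytes, dark in all eHep arrays and visible in mHep cells of 1 of the 3 mice. Its level was 0.48, -0.53 and -0.84 on the mHep arrays of 129S1-No1, between -7.35 and -5.99 on those of C57B6-No1 and -7.44 on that of 129S1-No2, and it was well above background in the first mouse only. On the 7 eHep arrays it ran from -8.16 through a median of -6.54 to -6.01, with 0 arrays well above background. The primary array stood at 4.46. Within 129S1-No1, mHep exceeded eHep by a log2 difference of 5.98 ± 0.40 (SE, 3 arrays each, adjusted p = 3.08e-06 in limma). With dark eHep readings raised to the lowest signal counted as well above background on their array, that is at least 13.3-fold higher. Slc10a1 entered this test only through the mHep arrays of 129S1-No1, where it was bright, so its call counts as description. The mHep mean of 129S1-No1 was still 27-fold below the single primary array.

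Slco1b2 encodes a liver carrier of bile acids, bilirubin conjugates and drugs. It stood at 0.72, -1.33 and 0.07 on the mHep arrays of 129S1-No1 and at -1.94 on that of 129S1-No2, against -7.01 to -5.24 on those of C57B6-No1, where it was dark. All 7 eHep arrays were dark, from -7.96 to -5.93 with a median of -6.47, and the primary array stood at 5.82. The visible arrays were thus all of 129S1 mice, 4 of 7 mHep arrays. By mouse, mHep exceeded eHep at least 14.4-fold in 129S1-No1 and at least 15.8-fold in 129S1-No2.

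Slco2b1, a broad organic anion and steroid sulphate carrier, was also visible unevenly in mHep. It reached -2.12 on the mHep array of 129S1-No2 and -3.13, -4.90 and -4.80 on those of 129S1-No1, where the second of the 3 was not well above background. It was dark on the mHep arrays of C57B6-No1 (-7.31 to -6.04) and on all 7 eHep arrays (-7.95 to -5.94), against 6.39 in primary cells. In 129S1-No2 the mHep reading was at least 13.9-fold above its eHep partner, a pair of single arrays with no test.

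Slc22a7, a sinusoidal carrier of small organic anions, was bright in primary cells and dark or dim on every cultured array. It stood at -2.94, -4.05 and -4.99 on the mHep arrays of 129S1-No1, dimly above background, and it was dark on the other 4 mHep arrays (-7.31 to -5.84). It was dark on the 7 eHep arrays too (-7.83 to -5.85), against 6.99 in primary cells. The difference of 2.12 ± 0.49 between the media in 129S1-No1 (SE, 3 arrays each, adjusted p = 0.00631 in limma) shrinks to a bound of 1.02-fold once dark readings are raised to the limit. Slc22a7 too entered that test only through the mHep arrays of 129S1-No1, so its call counts as description.

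Slco1a1 and Slco1a4, organic anion carriers of the rodent liver, stayed near the limit of detection in both media. Slco1a1 ran from -7.08 through -5.76 to -2.83 in mHep and from -8.03 through -6.43 to -3.41 in eHep, with 3 and 1 of 7 arrays well above background, against 1.51 in primary cells. The arrays above background came from both C57B6-No1 and 129S1-No1, and the second Slco1a1 probe was dark on all 14 cultured arrays and bright on the primary array at 0.48. Slco1a4 ran from -7.35 through -4.62 to -4.17 in mHep and from -6.57 through -3.81 to -3.39 in eHep, with 3 and 4 arrays well above background. In primary cells Slco1a4 stood at -1.82, close to the background limit of -2.12 on that array. In 129S1-No1, where it was above background on all arrays of both media, its mHep mean was -4.55 and its eHep mean -3.60, a difference that did not pass (adjusted p = 0.273 in limma). Its mHep arrays were dark in the other 2 mice, so those mice give no measured difference.

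**Figure D1:**
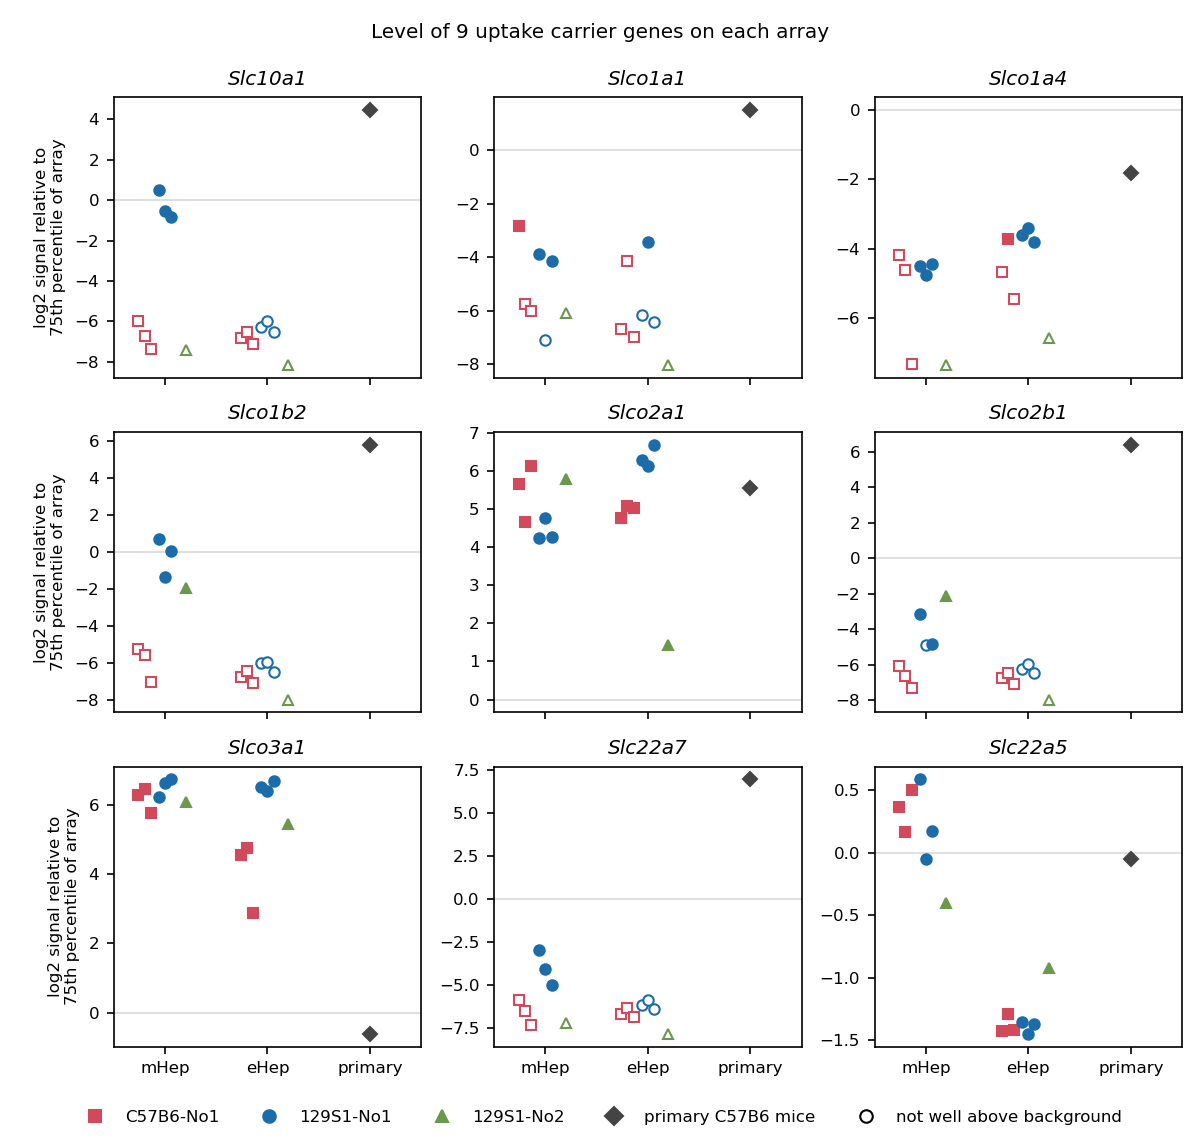
Level of each of the 9 carrier genes on each array, as log2 signal minus that array's 75th percentile, for mHep, eHep and primary hepatocytes. Each point is 1 array, coloured by mouse, and open points were not well above background. Slc10a1, Slco1b2, Slco2b1 and Slc22a7 have only open points in eHep, and Slco3a1 is the gene whose cultured arrays all lie above the primary array.

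Slco2a1 encodes the prostaglandin carrier, which brings prostaglandins into cells for breakdown. It was well above background on all 15 arrays. It ran from 4.24 through a median of 4.76 to 6.13 in mHep and from 1.43 through 5.08 to 6.69 in eHep, and the primary array stood at 5.55 between the extremes of both. The direction between the media depended on the mouse. In C57B6-No1 it was 5.48 ± 0.76 in mHep and 4.96 ± 0.18 in eHep (SD, 3 arrays each), in 129S1-No1 4.43 ± 0.29 in mHep and 6.37 ± 0.29 in eHep, and in 129S1-No2 5.78 in mHep and 1.43 in eHep. The fall of 1.94 in 129S1-No1 passed (SE 0.35, adjusted p = 0.00159 in limma), while the difference of 0.53 in C57B6-No1 did not (adjusted p = 0.321). The second Slco2a1 probe gave similar differences, 0.91 between mHep and eHep against 0.98 for the first.

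Slco3a1, a widely expressed organic anion carrier that also accepts prostaglandins, went the other way from the liver-specific carriers. It was well above background on all arrays, at 5.77 to 6.74 in mHep with a median of 6.28, at 2.89 to 6.68 in eHep with a median of 5.45, and at -0.62 in primary cells. Every cultured array lay above the primary array. The lowest cultured readings were the 3 eHep arrays of C57B6-No1, at 4.55, 4.76 and 2.89, while the mHep arrays of that mouse stood at 6.28, 6.45 and 5.77. In that mouse mHep rose over eHep by 2.10 ± 0.43 (SE, 3 arrays each, adjusted p = 0.00461 in limma), and in 129S1-No1 the difference was 0.00 ± 0.43 (adjusted p = 0.999).

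Slc22a5 encodes the sodium-coupled carnitine carrier, which supplies carnitine for the import of fatty acids into mitochondria. It ran from -0.40 through 0.17 to 0.59 in mHep and from -1.45 through -1.37 to -0.92 in eHep, and the primary array stood at -0.05, within the range of mHep. The media did not overlap, and the mean was higher in mHep in 3 of 3 mice, by 1.72 in C57B6-No1, 1.63 in 129S1-No1 and 0.52 in 129S1-No2. The arrays are repeats of these mice, and the share of all genes without overlap was not counted. Within C57B6-No1 and 129S1-No1 the rise passed (adjusted p = 0.000159 and 0.000161 in limma), where 11.8% and 17.3% of all genes tested rose. Across the 3 mice it did not pass (adjusted p = 0.241 in limma). The second probe of Slc22a5 gave a mHep minus eHep difference of 0.76 in the same direction. Against primary cells, where it was not well above background, its differences ran opposite to the first probe for eHep, 0.41 against -1.18, so no direction against primary cells is given for this gene.

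Across the 3 mice, the comparison of mHep with eHep asks how far the uptake carriers differed between the media. The test used 1 mean for each mouse in each medium, with the mouse as a block in limma. Of the 9 carriers, 4 were bright enough to be tested and 0 passed an adjusted p of 0.05, where 1.83% of the 14597 genes tested did (1.38% higher and 0.452% lower). Slco1b2 averaged -2.68 ± 2.95 in mHep and -6.94 ± 0.93 in eHep (SD, 3 mice), a log2 difference of 4.26 ± 1.06 (SE, adjusted p = 0.134) and at least 4.49-fold, with all eHep arrays and 3 mHep arrays dark. It was higher in both 129S1 mice, and C57B6-No1, dark in both media, gave no direction. With 1 mouse left out, its adjusted p was 0.130 without 129S1-No1, 0.0717 without 129S1-No2 and 1.99e-08 without C57B6-No1, each on 2 mice. The last of these fits gave all 4 carriers the same SE, 0.927, so that value does not rest on the spread of Slco1b2 itself. Slco1b2 entered the test only through mHep of the 129S1 mice, where it was bright. A rise in those mice was thus built in, and the fit on them alone supports nothing. Slc22a5 averaged 0.06 ± 0.40 in mHep and -1.23 ± 0.27 in eHep, a difference of 1.29 ± 0.43 (adjusted p = 0.241). Slco3a1 differed by 0.91 ± 0.51 (adjusted p = 0.479) and Slco2a1 by 0.98 ± 1.12 (adjusted p = 0.754), and the Slco2a1 difference was -0.71 without 129S1-No2. The other 5 carriers were not tested, and their mean differences were 2.28 for Slc10a1, 2.62 for Slco2b1, 1.11 for Slco1a1, 0.94 for Slc22a7 and -0.83 for Slco1a4, in part over dark readings.

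**Figure D2:**
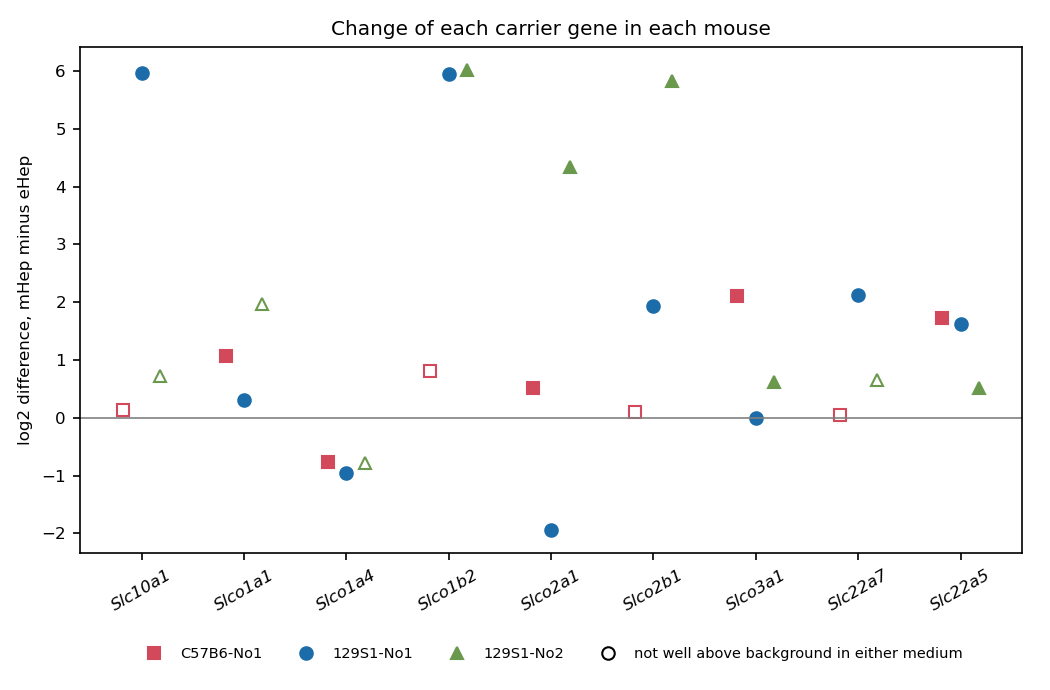
Log2 difference mHep minus eHep of each carrier gene in each of the 3 mice, where open points were not well above background on any array of that mouse. The filled points of Slc10a1 and Slco1b2 near 6 belong to 129S1-No1 and, for Slco1b2, also to 129S1-No2, whereas the 3 points of Slc22a5 all lie above 0.

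C57B6-No1 and 129S1-No1 had 3 arrays per medium, which allowed the difference between their changes to be tested in limma on 12 arrays. Of the 7 carriers bright enough in these mice, 4 passed, where 16.6% of 15743 genes did. By sign, the change in C57B6-No1 was more positive than in 129S1-No1 for 10.3% of genes and more negative for 6.29%. Slc10a1, Slco1b2 and Slc22a7 entered this test only through mHep of 129S1-No1, the group where they were bright, so they had to differ and their calls count as description. The change of Slc10a1 in C57B6-No1 minus that in 129S1-No1 was -5.84 ± 0.57 (SE, adjusted p = 0.000156), at 0.13 in C57B6-No1 and 5.98 in 129S1-No1, where every reading but those of mHep of 129S1-No1 was dark. With dark readings raised to the limit it was -3.64 (adjusted p = 0.00247), and with normexp background -2.45 (adjusted p = 0.0184). For Slco1b2 this difference was -5.14 ± 0.77 (adjusted p = 0.00168), at 0.81 in C57B6-No1 and 5.95 in 129S1-No1, with the same groups dark. It was -3.75 with dark readings raised (adjusted p = 0.00547) and -2.47 with normexp background (adjusted p = 0.0205). Slco2a1 and Slco3a1 differed the opposite way, by 2.47 ± 0.49 (adjusted p = 0.00784) and 2.10 ± 0.60 (adjusted p = 0.0382). Slco3a1 lost its call under 12 of 25 alternatives and Slco2a1 under 2 of 25, both with quantile-type scaling. The difference for Slc22a7 was -2.06 (adjusted p = 0.0654), passed under 7 of 24 alternatives with the lowest adjusted p at 0.0166, and was 0.06 with dark readings raised to the limit. That for Slc22a5 was 0.09 ± 0.29 (adjusted p = 0.832), and that for Slco1a4 was 0.20 ± 0.99 (adjusted p = 0.9). In the tests within a single mouse, 25.2% of genes passed in C57B6-No1 (11.8% higher and 13.4% lower in mHep) and 44.4% in 129S1-No1 (17.3% higher and 27.1% lower). Of the same 7 carriers, 2 rose in C57B6-No1, Slco3a1 and Slc22a5. In 129S1-No1, 4 rose (Slc10a1, Slco1b2, Slc22a7 and Slc22a5) and Slco2a1 fell. Of these, Slc10a1, Slco1b2 and Slc22a7 entered only through mHep of that mouse, so their rise in it is also description. The summed signal of the 9 hepatocyte markers was 165 to 292 in mHep of C57B6-No1 and 1040 to 1650 in mHep of 129S1-No1, and 281 in that of 129S1-No2, and the part of these levels in the carrier differences was not tested. The later of 2 scans held all 6 arrays of 129S1-No1 and 2 mHep and 2 eHep arrays of C57B6-No1. Within that scan alone the same 4 carriers passed, where 36.4% of genes did (23.5% more positive and 12.9% more negative in C57B6-No1). Their differences were -5.67 for Slc10a1, -4.77 for Slco1b2, 2.18 for Slco2a1 and 1.71 for Slco3a1. Mouse and strain cannot be told apart, nor can medium and slide in 129S1-No1.

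Against primary hepatocytes, the question was how far the cultured cells stood from the freshly isolated ones. The eHep and mHep means of the 3 mice and the single primary array were fitted as 3 groups, with the spread of the cultured means standing in for that of primary cells, and both comparisons share that array. Slc10a1, Slco1a1, Slco1a4, Slco2b1 and Slc22a7 entered through the primary array alone, where they were well above background, which favours a lower call in culture. The counts below thus describe the carriers and support nothing. In eHep, 5 of 9 carriers were lower and 1 was higher, at an adjusted p under 0.05 and a log2 difference of at least 1. Of the 15168 genes tested, 9.39% were lower and 5.61% higher. The bounds below are for the mean of the 3 mice, with dark readings raised to the limit, and the bound of a single mouse can be smaller. Slc22a7 was lower by a log2 difference of -13.84 ± 1.30 (SE, adjusted p = 0.00231), which is at least 3660-fold (2060 to 7660 by mouse). Slco2b1 was at least 2420-fold lower (-13.37 ± 1.61, adjusted p = 0.00442), Slco1b2 at least 1620-fold lower (-12.76 ± 2.01, adjusted p = 0.00917) and Slc10a1 at least 634-fold lower (-11.54 ± 2.60, adjusted p = 0.0302). Slco1a1 was lower by -7.94 ± 1.09 (adjusted p = 0.00623), with 1 eHep array measurable. Slco3a1 was 62.6-fold higher in eHep (5.97 ± 0.93, adjusted p = 0.00877). Slco1a4 differed by -3.11 ± 1.40 (adjusted p = 0.186) and Slco2a1 by -1.30 ± 1.73 (adjusted p = 0.665) and 0.11 without 129S1-No2. Without C57B6-No1, Slc10a1 (adjusted p = 0.104) and Slco1a1 (adjusted p = 0.0524) did not pass, and without 129S1-No2 Slc10a1 did not (adjusted p = 0.0587), with log2 differences of -11.67, -8.19 and -11.00. Within the earlier scan, where primary cells met the pair of 129S1-No2 and 1 pair of C57B6-No1, 6 carriers were lower and 1 was higher in eHep, where 22.3% of genes were lower and 13.9% higher, 36.2% in all.

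In mHep, 4 of the 9 carriers were lower than in primary cells, where 5.97% of genes were, and 1 was higher, where 4.01% were, 9.97% in all. For the mean of the 3 mice, with dark mHep readings raised to the limit, Slc22a7 was at least 3020-fold lower (-12.90 ± 1.30, adjusted p = 0.00313) and Slco2b1 at least 1050-fold lower (-10.75 ± 1.61, adjusted p = 0.0101). On the same scale Slco1b2 was at least 261-fold lower (-8.50 ± 2.01, adjusted p = 0.0458) and Slco1a1 at least 68.3-fold lower (-6.83 ± 1.09, adjusted p = 0.0126). By mouse, Slc22a7 was 2020-fold lower in 129S1-No1, where all mHep arrays were measured, and at least 2910-fold lower in C57B6-No1 and 4710-fold in 129S1-No2. Slco2b1 was 366-fold lower in 129S1-No2, measured, and at least 1630-fold in 129S1-No1 and 1930-fold in C57B6-No1. Slco1b2 was 63.7-fold lower in 129S1-No1 and 215-fold in 129S1-No2, both measured, and at least 1290-fold in C57B6-No1. Slco1a1, with dark readings in every mouse, was at least 53.1-fold lower in C57B6-No1, 56.8-fold in 129S1-No1 and 106-fold in 129S1-No2. Slco3a1 was 117-fold higher in mHep (6.88 ± 0.93, adjusted p = 0.00749). Slc10a1 differed by -9.27 ± 2.60 (adjusted p = 0.0737), and its mHep means spread over an SD of 3.93 between mice. Slco1a4 differed by -3.94 ± 1.40 (adjusted p = 0.13) and Slco2a1 by -0.32 ± 1.73 (adjusted p = 0.925), which turned to 1.01 with quantile normalization. None of the 5 passed without C57B6-No1, where 102 genes did in all and their adjusted p ran from 0.0524 to 0.0816. Without the mHep array of 129S1-No2 alone, 3 carriers were lower and 1 was higher, where 490 and 284 of 15168 genes were. Within the earlier scan 6 carriers were lower, Slc10a1 among them (-11.85, adjusted p = 0.00293), and 1 was higher. In that scan 16.6% of genes were lower and 9.74% higher, 26.4% in all. With the mouse as a random replicate block, which pairs the media, Slco1b2 did not pass in mHep (adjusted p = 0.0523). That left 3 carriers lower and 1 higher, where 909 and 553 of 15168 genes were, and the carrier calls in eHep did not change. With every scaling tried, Slco1a1, Slco2b1 and Slc22a7 stayed lower and Slco3a1 stayed higher, and Slco1b2 missed the threshold with 3 scalings (adjusted p from 0.0513 to 0.0528) and with 9 of its 30 alternatives in all.

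**Figure D3:**
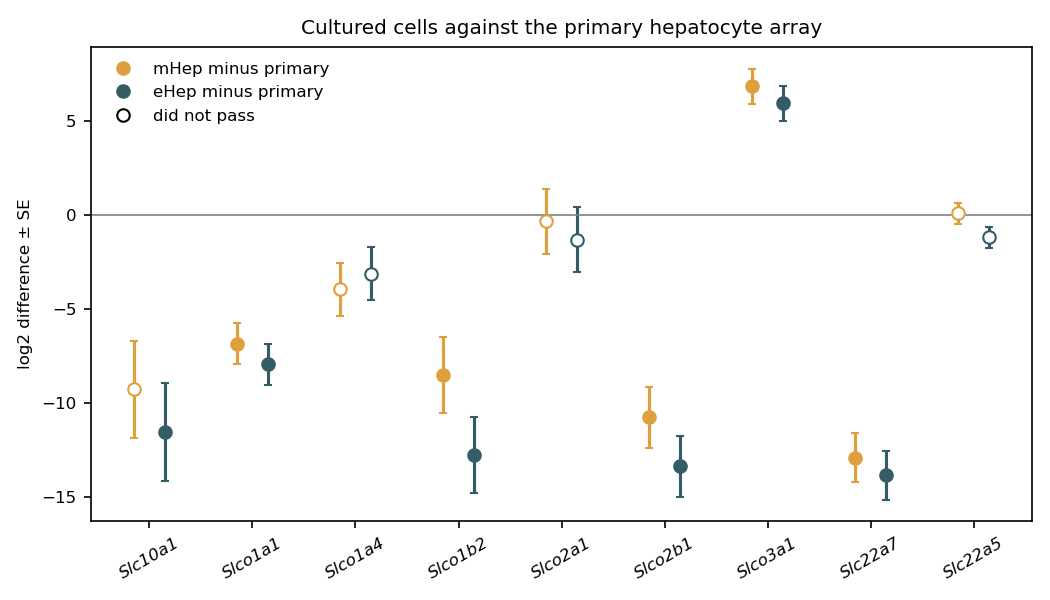
Log2 difference of mHep (left of each pair) and eHep (right) from the primary hepatocyte array, with bars of 1 SE from limma and open points where the gene did not pass. Slco3a1 lies above 0 in both, and Slc10a1, Slco1a1, Slco1b2, Slco2b1 and Slc22a7 lie below -6 in both.

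Ordered by mouse mean, Slc10a1, Slco1b2, Slco2b1, Slc22a7 and Slco1a1 were highest in primary cells, then in mHep and then in eHep. The step between mHep and eHep did not pass the test above for Slco1b2 and was not tested for the others. Slco1a4 was highest in primary cells, then in eHep and then in mHep, with neither step called. Its primary reading was itself near the floor, at -1.82 with a background limit of -2.12 on that array. Before scaling, that signal was 22.2, against 22.4 to 29.8 on the eHep arrays of 129S1-No1, so its first place depends on the scaling. For these 6 genes the means include dark readings, so the order of the media is not established by them. Slco3a1 was highest in mHep, then in eHep and lowest in primary cells, where the last step was called. Slco2a1 was by mouse mean highest in primary cells, then mHep, then eHep, with no step called. By median over arrays it was higher in eHep (5.08) than in mHep (4.76). Its sign reversed under 7 of 30 alternatives for mHep against primary cells, 2 of 30 for eHep against them and 3 of 30 between the media. The order of Slco2a1 is thus not established either. Slc22a5 was higher in mHep than in eHep by both probes, without a call across mice, and is not placed against primary cells.

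Other cell types could carry some of these genes. Of 12 endothelial markers, 2 to 4 were well above background on the mHep arrays, 4 to 7 on the eHep arrays and 6 on the primary array, with summed signals of 0.388 to 0.938 in mHep, 4.12 to 9.51 in eHep and 18.9 in primary cells. Pecam1, Tie1 and Emcn were well above background on 0 of 15 arrays, while Stab1 and Stab2 were on all. Of 10 Kupffer and macrophage markers, 2 to 3 were well above background in mHep, 2 to 4 in eHep and 5 in primary cells, with summed signals of 0.343 to 1.03 in mHep, 0.204 to 2.92 in eHep and 14.3 in primary cells. Adgre1, Clec4f and Cd5l were so only in primary cells, whereas Cd68 was so on 7 mHep and 7 eHep arrays but not in primary cells. Csf1r was well above background on all arrays, and Marco on 3 mHep arrays, 4 eHep arrays and the primary array. Of 6 biliary and progenitor markers, 5 to 6 were well above background in mHep, 4 to 6 in eHep and 2 in primary cells, with summed signals of 149 to 849 in mHep, 268 to 618 in eHep and 5.38 in primary cells. Of 10 stellate and fibroblast markers, 3 to 4 were well above background in mHep, 2 to 5 in eHep and 3 in primary cells. Their summed signals were 17.4 to 31 in mHep, 15.3 to 33.5 in eHep and 18.7 in primary cells. Acta2 was well above background on all arrays, and Dcn on 7 mHep arrays, 3 eHep arrays and the primary array. Col1a2 was so on 5 mHep arrays, 5 eHep arrays and the primary one, and Des and Pdgfrb on 0 arrays. Of 5 mesothelial markers, 1 to 4 were well above background in mHep, 1 to 4 in eHep and 0 in primary cells, with summed signals of 9.25 to 292 in mHep, 77.4 to 384 in eHep and 0.259 in primary cells. In 129S1-No1 that sum was 9.25 to 23.7 in mHep and 316 to 384 in eHep. Msln, mesothelin, was well above background on all 14 cultured arrays and higher than in primary cells in both media (11.97 in eHep and 10.42 in mHep), and Wt1 was dark on all arrays. The part of these levels in the carrier values was not tested.

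Related gene lists were read in the same fits for context. Of 17 other uptake and sinusoidal carriers tested, 3 rose in mHep over eHep and none fell, with a median difference of 1.14, against -0.10 over all genes tested. They were the glucose carrier Slc2a2 (5.10 ± 0.71, adjusted p = 0.0318), the phosphate and anion carrier Slc17a1 (2.85 ± 0.37, adjusted p = 0.0277) and Slc10a2 (2.64 ± 0.43, adjusted p = 0.048), the bile acid carrier best known from ileum and bile ducts. Of 12 export carriers, 2 rose, Slc51b, a subunit of the basolateral bile acid exporter (5.75), and Abcg5, a subunit of the canalicular sterol exporter (5.71), with a median of 1.29. Of 9 genes of bile acid synthesis and conjugation, Baat, which joins bile acids to taurine or glycine, rose (7.39), with a median of 1.71. Of 17 transcription factors known to act on carrier genes, 3 rose, the nuclear receptors Ppara (5.53), Nr5a2 (4.68) and Nr1h4, the bile acid receptor (3.18), with a median of 1.06.

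The list of prostaglandin genes, which bears on Slco2a1, had 1 gene higher and 1 lower of 14. Hpgd, which degrades prostaglandins, rose (5.14) and Ptgs2, the inducible cyclooxygenase, fell (-4.89) in mHep, with a median of -0.28. Of 10 carnitine genes, beside the carnitine carrier Slc22a5, none passed, with a median of 0.35.

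**Figure D4:**
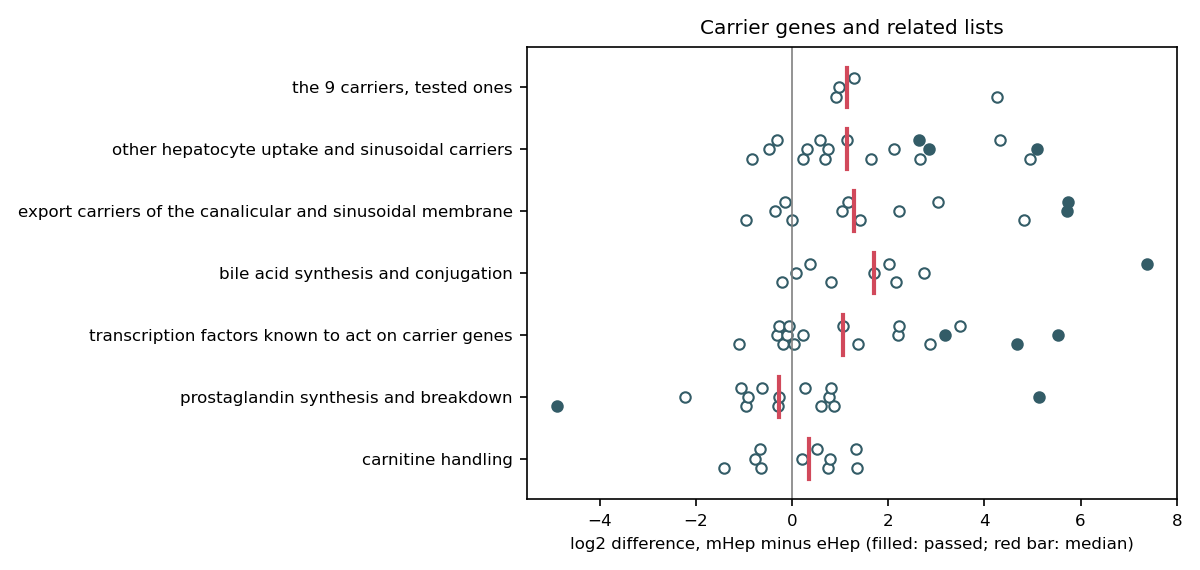
Log2 difference mHep minus eHep of the tested carrier genes and of 6 related gene lists, where each point is a gene, filled points passed in limma and red bars are medians. The 4 tested carriers are all open and have a median of 1.13, and the filled points of the carrier, bile acid and transcription factor lists lie to the right of 0.

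Against primary cells, a gene dark in culture could enter the test through the primary array alone, which favours a lower call. The list counts here and in the next paragraph are thus description, and differences over dark readings are not measured sizes. Of all genes tested, 9.39% were lower and 5.61% higher in eHep, and 5.97% and 4.01% in mHep. Of 20 other uptake carriers, 9 were lower in eHep, with a median difference of -4.17 against -0.19 over all genes tested. Among them were Slc27a5, a bile acid and fatty acid ligase (-15.20), the sulphate carrier Slc26a1 (-11.95) and Slc22a28 (-10.59). In mHep 6 of the 20 were lower, with a median of -2.66 against -0.34 over all genes tested, among them Slc27a5 (-12.10), Slc22a28 (-10.03) and Slc22a30 (-9.81). Of 16 export carriers, 7 were lower and 1 was higher in eHep, with a median of -3.54, and 3 were lower and 1 was higher in mHep, with a median of -2.01. The canalicular bile salt exporter Abcb11 was lower in both cultures (-12.56 in eHep and -10.31 in mHep), and Abcc4, an exporter of bile acids and prostaglandins across the sinusoidal side, was higher in both (9.15 in eHep and 8.19 in mHep). Of 11 genes of bile acid synthesis, 8 were lower in eHep, with a median of -5.38, and 6 in mHep, with a median of -4.81, among them Cyp7a1, the rate-limiting enzyme (-8.26 in eHep and -7.55 in mHep).

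Of 18 transcription factors, 7 were lower in eHep, with a median of -3.80, among them Nr1i3, a receptor for drugs and bilirubin (-8.65), Nr0b2 (-7.58), Cebpa (-6.92) and Nr5a2 (-6.67). In mHep 2 of the 18 were lower, Nr1i3 (-8.66) and Nr0b2 (-7.36), with a median of -1.997. Of 14 prostaglandin genes, 1 was higher (Abcc4) and 1 lower (Hpgd, -6.14) in eHep, and in mHep only Abcc4 passed. Of 11 carnitine genes, 2 were higher and 5 lower in eHep, led by the carnitine synthesis enzyme Bbox1 (-10.68), and 3 were lower in mHep, Shmt1 (-5.06), Cpt2 (-3.50) and Aldh9a1 (-2.63).

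Likeness of pattern was described by Pearson's r of log2 level over the 15 arrays, among 13943 genes well above background on at least 3 arrays. These arrays share mice and media, and 1 bright primary array weighs heavily in r, so the values are descriptions. Many of the readings behind r were dark and carry no order. Slc10a1, Slco2b1 and Slc22a7 were dark on 11 of 15 arrays, Slco1a1 and Slco1b2 on 10 and Slco1a4 on 7. Slc10a1 was most like Slc6a12 (0.999) and the major urinary protein genes Mup8 and Mup6 (0.996 each), near-identical copies that their probes may not separate. Slco1b2 was most like Serpina11 (0.978), Slc47a1 (0.975) and Pbld1 (0.973), Slco2b1 like Rdh16f2 (0.973), Lipe (0.971) and C6 (0.971), and Slc22a7 like Agtr1a (0.991), Mup9 (0.989) and Insc (0.988). Slco3a1 was most like Vil1 (0.990), Cxcl16 (0.981) and Epb41l1 (0.963), and Slc22a5 like Ly6d (0.950), Ccpg1 (0.943) and Sync (0.937). Slco2a1 was most like Pgk1 (0.914), Golga2 (0.890) and Il4ra (0.886), Slco1a1 like Pdia4 (0.910), Tmem205 (0.909) and Olfr341 (0.897), and Slco1a4 like Olfr821 (0.978), Mdga2 (0.961) and Mrrf (0.960). Among the carriers themselves, r was 0.93 between Slc10a1 and Slco1b2, 0.901 between Slco1b2 and Slco2b1 and 0.925 between Slco2b1 and Slc22a7, whereas Slco3a1 had r of -0.419 with both Slc10a1 and Slco1b2.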

How the data were processed

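Per the file headers, each of the 15 scanner files held Cy3 intensities read with Agilent Feature Extraction (version 10.7.1.1 on 5 arrays, 10.7.3.1 on 10), and the processed signal had its background subtracted and a spatial trend removed, without scaling between arrays. Probe positions were in mm9. The log2 values deposited by the authors, whose making the labels did not state, correlated with the log2 processed signals at r of at least 0.972 on every array. Here spots of a probe were averaged after dropping outlier spots, each array was centred on its 75th percentile, and each gene was read by its brightest probe. RefSeq accessions named 27668 of 41174 probes. To be tested, a gene needed a signal well above background on every array of 2 or more of the 3 mice in 1 medium, on the primary array for comparisons with it, or on all 3 arrays of a mouse and medium in the comparison of mice. Fits used limma 3.58.1 in R 4.3.3, with Benjamini-Hochberg adjustment over all genes tested at 0.05. The labels pair eHep and mHep by mouse, and deviations of the same mouse correlated at 0.397 to 0.563, against at most 0.0114 between mice. The fit against primary cells left the mouse out, and a fit with it as a random replicate block was an alternative. The members and lists were chosen with earlier results of these data known. Named genes of a list were the up to 4 of largest difference that passed, 1 of which is not reported here, and likeness named the 3 highest r. Software was version 1.17.8 of data.table and, for figures, Python 3.11.15 with matplotlib 3.10.9 and pandas 2.3.3. Promoter sequences were those of RefSeq. Alternatives covered background, scaling, the deposited log2 values, filters, probe rule, moderation, scan, slide, blocks and left-out mice and arrays.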

Additional observations from a re-analysis of the deposited data

Results flagged for a closer look

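On the eHep array of 129S1-No2, Slco2a1 stood at 1.43, where the nearest of the other 6 eHep arrays was at 4.75, farther than a rule for a single distant sample allows. On the same array Slc22a5 stood at -0.92, above the other 6, the nearest at -1.29. Chance alone marks about 1 group in 20 by that rule, and both marks fell on the only eHep array of that mouse, so array and mouse cannot be told apart.

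The change with the medium differed between the mice for 4 of 7 carriers tested, as C57B6-No1 minus 129S1-No1 in the test of the difference itself, where 16.6% of genes passed. It was -5.84 for Slc10a1, -5.14 for Slco1b2, 2.47 for Slco2a1 and 2.10 for Slco3a1. These are changes of 2 animals, whose mouse and strain cannot be told apart, nor can medium and slide in 129S1-No1. The first pair of values rests on dark readings in every group but mHep of 129S1-No1. Slc10a1 and Slco1b2 entered the test only through that group, so they had to differ and their calls count as description. Slco3a1 lost its call under 12 of 25 alternatives. Within the later scan alone the same 4 carriers passed, where 36.4% of genes did.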

How the results depend on the processing

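The number of arrays limits the precision, 1 primary array has no spread of its own, and dark readings carry only bounds. Every alternative gave Slc10a1, Slco1a1, Slco1a4, Slco1b2, Slco2b1 and Slc22a7 lower, and Slco3a1 higher, than primary cells in both media where it was run. For Slco1a4 the primary reading was itself close to the background limit, and no step was called in the main fit. The cause of the shifts below was not tested, except that scans, single mice and single arrays as samples also change which arrays enter. The later scan holds no primary array, the earlier scan holds no array of 129S1-No1, and between mHep and eHep leaving out either array of 129S1-No2 removes its pair, so those fits were not made.

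For mHep against eHep, 267 genes (201 higher, 66 lower) became 176 with normexp background, 110 (94 and 16) with quantile normalization or the deposited table, 105 (96 and 9) with the percentile of probes detected on all arrays, 521 with median scaling, 658 without a filter, 428 with a strict one, 1519 in the earlier scan, 470 in the later one, 5024 with 14 arrays as samples and 3006 with slide added. Leaving out mice or arrays gave 233 to 831 genes and 0 to 1 carriers. Carriers called were 1 with no filter (Slco1b2), 1 in the earlier scan (Slco2a1), 2 with arrays as samples (Slco1b2 and Slc22a5) and 1 with slide (Slc22a5). Without the replicate block by mouse, the paired comparison gave 2 genes and 0 carriers. Slco2a1 was -0.71 to 2.44 with a mouse or array left out, -0.85 in the later scan and -0.35 with slide.

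For eHep against primary cells, 2276 genes (851 higher, 1425 lower) became 8498 without a filter, 5489 in the earlier scan, 4958 with C57B6-No1 alone and 429 to 2385 with a mouse or array left out, the lowest without C57B6-No1. For mHep, 1513 (608 and 905) became 954 with normexp, 8827 without a filter, 3997 in the earlier scan, 4057 with C57B6-No1 alone and 102 to 2217 with a mouse or array left out, the lowest without C57B6-No1, and 0 to 6 carriers. Quantile normalization gave 1700 higher and 1297 lower genes in eHep and 1305 higher and 819 lower in mHep, and shifted the median of all genes by 0.51 and 0.57. The percentile of detected probes gave 1192 and 1305 in eHep and 921 and 789 in mHep, median scaling gave 1149 and 1235 in eHep and 815 and 770 in mHep, and normexp gave 282 and 672 in mHep. Against primary cells, Slco2a1 in eHep was -2.35 to 0.11 with a mouse or array left out. In mHep it was -0.59 to 0.083 likewise, 0.28 with normexp, 1.01 with quantile normalization or the deposited table, 0.26 with detected probes, 0.16 with median scaling and 0.41 in the earlier scan. Slc22a5 in mHep was -0.01 with normexp and -0.034 to 0.34 with a mouse or array left out.

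For C57B6-No1 minus 129S1-No1, 2613 genes became 610 with normexp, 5723 in the later scan, 1331 with slide and 1504 to 4944 with an array left out, with 3 to 4 carriers. A strict filter left 3 carriers, of which 2 passed, where 2168 of 12796 genes did. Slco1a4 was -0.069 with normexp, -0.075 with detected probes and -0.40 to 1.17 with an array left out. Slc22a7 was 0.06 with dark readings raised, and Slc22a5 was -0.18 with detected probes, -0.002 in the later scan and -0.049 to 0.27 with an array left out. Slc22a7 passed under 7 of 24 alternatives. They were the replicate number as a replicate block (-2.06, adjusted p = 0.0305), quantile normalization (-2.39), the deposited table (-2.39), detected probes (-2.34), median scaling (-2.15, adjusted p = 0.0498) and the fits without mHep array 3 of 129S1-No1 or mHep array 1 of C57B6-No1.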
